A study of Mus musculus with 10 samples.

Results

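The stretch of mouse chromosome 11 from 60 to 80 Mb that surrounds Trp53, the gene of the transcription factor p53, was examined probe by probe in lungs with and without p53. Its members were all array probes for transcripts whose files' coordinates (mm7) start in that interval, 686 probes, less 8 left out by the rule of choice, among them the 2 Trp53 probes. This left 678 of the 41174 probes on the array, which carried 369 named genes and 106 probes with only the file's own transcript name. Of the 678, 574 gave a signal well above background on 5 or more of the 10 arrays and were tested, and 50 of the 104 others did so on none. The members were placed by position alone, under a rule that was chosen with earlier results of these data known.

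Whole lung was taken from male mice 8 weeks of age after 30 min of aerosolized saline, 5 wild-type and 5 p53-null animals, both listed on the strain background C57BL/6J. The series' design calls them biological replicates, 1 RNA sample per 1-colour Agilent array, so the number of arrays limits the precision. Apart from the slide of wild-type array 4 and p53-null array 2, each slide held 1 genotype, so slide and genotype are largely confounded. The loss of p53 was not limited to a tissue or a time, as far as the labels say. They name neither the p53 allele, nor the cells in which it was made, nor a number of backcrosses, so the loss of p53 and any sequence that came along with the allele on chromosome 11 cannot be told apart by this design.

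p53 is a transcription factor that switches on genes of cell-cycle arrest, DNA repair and cell death. The genes next to it on the chromosome are not, as a group, its targets: they include the skeletal myosin heavy chain cluster, a lipoxygenase cluster, olfactory receptor genes, a gene-dense block of chromatin and transport genes around Trp53 itself, and the genes whose human counterparts are lost in the Smith-Magenis and Miller-Dieker deletions. Neighbours on a chromosome also tend to be inherited together, the more so the nearer they lie.

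Each member is a probe of 60 bases, and several of the results below turn on single probes. The first 30 bases of 9 such probes are shown 5′ to 3′, as read from the files, all in lower case because no base is singled out. They are 3 probes of Ywhae and 3 of Crk, which gave unlike values within 1 gene, both probes of Gosr1, which differed in sign, and the Fbxo39 probe, which had the smallest p of all members. No other probe on the array shared a run of 20 bases with any of these 9, and positions are mm7.
Ywhae probe 1, chr11:75826800-75826859, plus strand: gtcatatcacaagtgacataaataacgatc
Ywhae probe 2, chr11:75846623-75846682, plus strand: attagacttctaggtgatgcatctaagaaa
Ywhae probe 3, chr11:75847243-75847302, plus strand: cccattttaccccataaatcatttgttttc
Crk probe 1, chr11:75773964-75774023, plus strand: gaatgatgaagaagatcttccctttaagaa
Crk probe 2, chr11:75786699-75786758, plus strand: tcagtgatactgaatggacaggtttgtagc
Crk probe 3, chr11:75787990-75788049, plus strand: catttctcctttttaatgtaagtagcaatt
Gosr1 probe 1, chr11:76808365-76808424, minus strand: atgggaaatcagttcttaccatactttatt
Gosr1 probe 2, chr11:76830082-76830141, minus strand: gtctggagtaaacaacaggagaacggaact
Fbxo39 probe, chr11:72388201-72390214, plus strand: cagaaaatacgtatgcctcccatatgaaac
The Fbxo39 coordinates span more than the probe's length, as they did for 81 members in all, and whether a probe lies in an exon, an intron or a UTR of the mm7 gene models was not analysed here.

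Spots well above background made up 71.4% to 84.0% of each array, and all 10 lung markers, such as surfactant and alveolar genes, were so on all 10 arrays. Wild-type array 5 stood apart: its signals rose with the GC content of the probes (correlation across probes 0.35), while the other wild-type arrays ran from -0.32 to 0.0034 and the p53-null arrays from 0.0043 to 0.20. Summed markers of skeletal muscle were high on wild-type array 2 (3.77 on a centred log2 scale), p53-null array 4 (2.34) and p53-null array 5 (2.59), against -1.75 to -0.82 on the other 7 arrays. In p53-null lung 9 of 12 neutrophil markers, 8 of 10 B cell markers and 7 of 12 markers of T or NK cells were called higher, and none of these lower.

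In p53-null lung the region held a small number of very large differences in both directions among many modest ones. A Ywhae probe was at least 11.2-fold lower, the Fbxo39 probe was 9.31-fold lower, and the unnamed transcript TC1467208, placed between the Trp53 probes, was 10.2-fold higher. In all, 65 of the 574 tested probes, in 57 named genes and 1 transcript without a gene name, passed limma's test at an adjusted p under 0.05, which is 11.3% beside 7.1% of all 31599 probes tested. Of these, 41 were higher in p53-null lung, beside 4% of all probes tested, and 24 were lower, beside 3.1%. p-values were adjusted over the whole array.

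Large and strict calls made up a larger share of the tested members than of all probes tested. The shares below are of probes tested, not of calls. At a change of 2-fold or more, 13 members (2.26%) were called beside 0.981% of all probes. Of the 13, 8 were higher, beside 0.804%, and 5 were lower, beside 0.177%. Among the 8 was a dim Myh3 probe, whose lower bound, given below, was 1.94-fold. At an adjusted p under 0.01 there were 11 (1.92%), beside 0.278%. The 5 p53-null arrays all lay on one side of the 5 wild-type arrays for 75 members (13.1%), beside 9.16%, and 54 of these 75 were called.

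The median difference of the members was 0.093 on the log2 scale and that of all probes 0.037, so most of the region sat where the rest of the array did. Of 69 tested probes without a gene name, 1 was called, beside 7.1% of all probes tested. The 2 strands gave like shares, 36 of 300 probes on the plus strand (12%) and 29 of 274 on the minus strand (10.6%). Called probes had a median GC content of 45.0% when higher and 41.7% when lower, beside 43.3% for members not called and 41.7% over all probes tested.

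**Figure D1:**
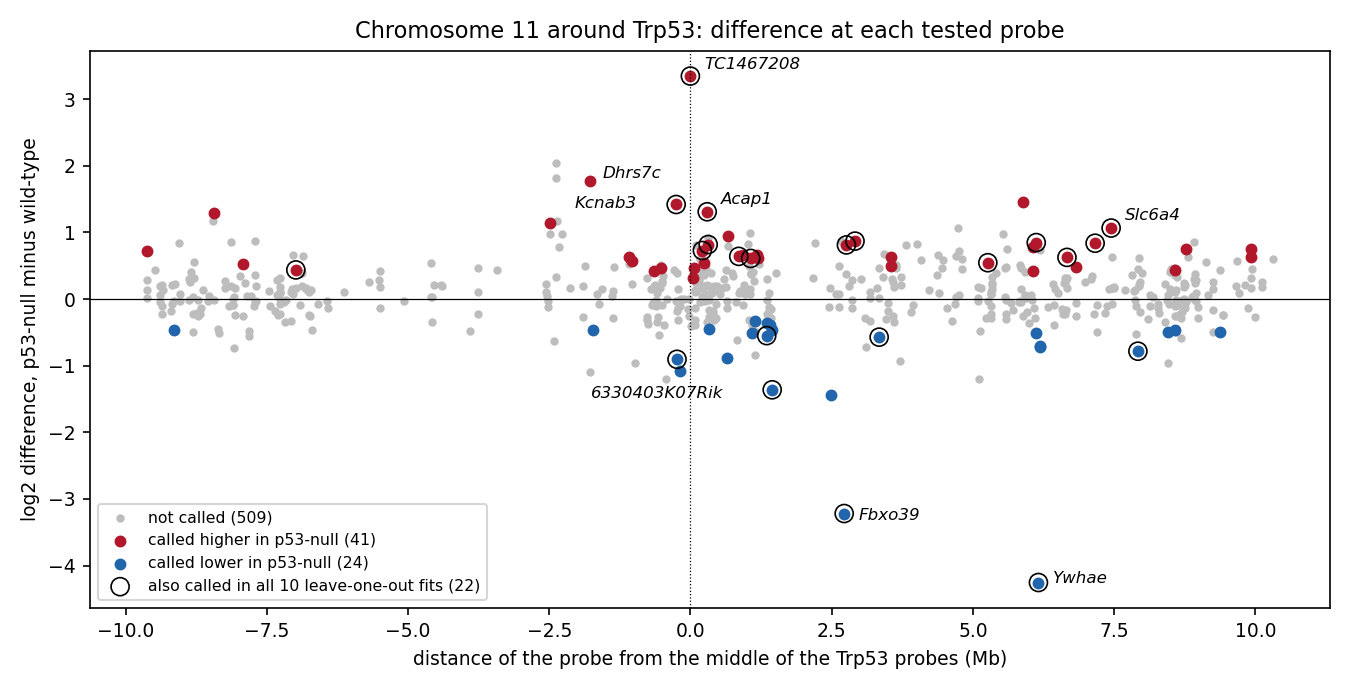
Log2 difference (p53-null minus wild-type, 5 arrays each) of each of the 574 tested probes against its distance in Mb from the middle of the Trp53 probes; red and blue points were called higher and lower, grey points were not called, and rings mark the 22 also called in all 10 fits that leave out 1 array. Most points lie near 0, and the Ywhae, Fbxo39 and TC1467208 probes lie past 3 log2 units.

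The calls were unevenly spread along the region. From 60 to 65 Mb, 5 of 114 probes were called (4.39%), and 1 of the 5, the cation channel gene Trpv2, was also called in every fit that left out 1 array. The next 3 stretches of 5 Mb held 18 of 134 (13.4%), 22 of 152 (14.5%) and 20 of 174 (11.5%). The gene-rich megabase that holds Trp53, from 69 to 70 Mb, had the most tested probes and the most calls of any megabase, 13 of 83 (15.7%), 10 higher and 3 lower. By share it was not the highest: from 75 to 76 Mb, for example, 8 of 42 were called (19.0%). From 71 to 72 Mb, 5 of 16 probes were called (31.2%) and all were lower, in Rabep1, Dhx33, Mis12 and 6330403K07Rik, but so few probes make a thin stretch. The 22 probes from 63 to 67 Mb held no call.

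Beside the rest of the chromosome, the region was not the stretch with most calls. From 80 to 100 Mb 73 of 509 probes were called (14.3%), from 100 Mb on 62 of 652 (9.51%), from 40 to 60 Mb 31 of 344 (9.01%), from 20 to 40 Mb 11 of 194 (5.67%) and from 0 to 20 Mb 18 of 208 (8.65%). On other chromosomes 1984 of 29110 were called (6.82%). Large differences were not particular to the region either: from 80 to 100 Mb they ran from -3.92 to 3.96 on the log2 scale. There, 4.91% of tested probes were called at 2-fold or more, beside 2.26% of the members. Calls also made in every fit that left out 1 array were 5.30% there, beside 3.83% of the members. Neighbouring probes share genes and transcripts and are no replicates, so these shares were not tested against each other.

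**Figure D2:**
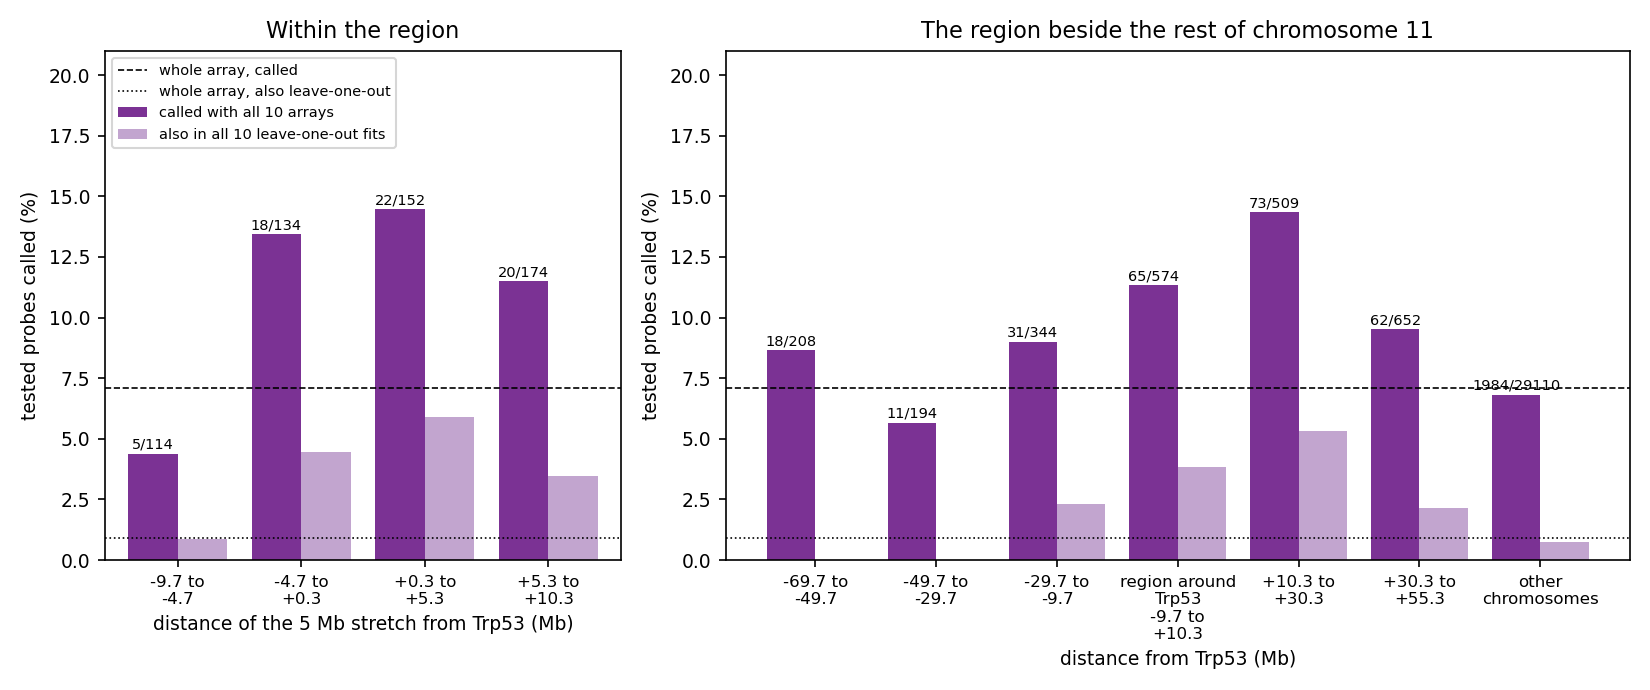
Bars give the percentage of tested probes called (dark, with called/tested counts) and also called in all 10 leave-one-out fits (light), on the left for the 4 stretches of 5 Mb in the region and on the right for the region, the rest of chromosome 11 and other chromosomes; dashed and dotted lines mark the whole array. The stretch farthest before Trp53 has 4.39% and the other 3 have 11.5% to 14.5%, while the stretch just after the region reaches 14.3%.

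Within 250 kb of the Trp53 probes, 8 of 45 tested probes were called (17.8%), beside 7.1% of all probes. Of the 8, 6 were higher, beside 4% of all probes, and 2 were lower, beside 3.1%. Most of the nearest genes were not called. Wrap53, which shares its promoter region with Trp53 and encodes a protein of telomerase trafficking, differed by 0.0049 ± 0.076 (adjusted p = 0.976). The pump subunit gene Atp1b2 differed by -0.40 ± 0.14 (adjusted p = 0.106) and the ephrin gene Efnb3 by -0.25 ± 0.23 (adjusted p = 0.527). RNA polymerase II's large subunit gene Polr2a, at 0.28 ± 0.25, and the histone demethylase gene Kdm6b, at -0.11 ± 0.13, were not called either.

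The transcript TC1467208 lies between the Trp53 probes on the plus strand and has no gene name in the files. Whether it is part of Trp53 itself or a separate transcript was not analysed. TC1467208 was the member most raised in p53-null lung. On wild-type arrays 1 to 5 its log2 signal relative to the array's 75th percentile, the scale of all levels given here, was -4.57, -5.23, -4.84, -3.98 and -4.56, and on p53-null arrays 1 to 5 it was -1.43, -1.13, -1.11, -1.66 and -1.12. The groups did not overlap, and every p53-null array was more than 2 log2 units above the highest wild-type array. The difference was 3.35 ± 0.21 (SE, n = 5 per group; limma adjusted p = 8.55e-05).

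The other 7 probes called within 250 kb were spread on both sides of Trp53. Fgf11, a growth factor family member that stays inside the cell, read -1.04, -0.90, -0.91, -0.95 and -0.61 on the wild-type arrays and -0.19, -0.23, -0.12, -0.15 and -0.08 on the p53-null arrays, with no overlap, and rose by 0.73 ± 0.090 (adjusted p = 0.00628). Its second probe differed by 0.43 ± 0.52 (adjusted p = 0.647). The potassium channel subunit gene Kcnab3 rose by 1.42 ± 0.17 and the chromatin remodeller gene Chd3 fell by 0.90 (SE 0.13) on 1 of its 4 probes.
Tmem88, a membrane protein that restrains Wnt signalling, fell by 1.08 (SE 0.18, adjusted p = 0.017). Its wild-type arrays 1 to 4 lay between 1.25 and 1.59, wild-type array 5 at 0.61, and the p53-null arrays between -0.07 and 0.43. The synaptic adhesion gene Nlgn2 rose by 0.55 ± 0.11, the glycosylation gene Mpdu1 by 0.46 ± 0.085 and the acetyltransferase gene Sat2 by 0.32 ± 0.082. With the GC trend of each array removed, 6 of the 8 probes called within 250 kb kept their call. Mpdu1 (0.30, adjusted p = 0.0699) and Sat2 (0.30, adjusted p = 0.0529) missed the threshold.
Of the 29 tested probes of genes listed as neighbours of or linked with Trp53, 2 were called higher and 2 lower. The shares of all probes were 4% and 3.1%. The list's median was -0.030 beside 0.037 for all probes.

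The largest decreases were in genes of unrelated function. Ywhae encodes the epsilon member of an adaptor family that binds phosphorylated proteins. Its probe 1 read -2.59, -4.18, -3.32, -2.69 and -3.22 on the wild-type arrays and -8.14, -5.84, -7.88, -7.94 and -7.47 on the p53-null arrays, with no overlap. Only 1 of the 5 p53-null arrays was well above background for it, so the size of the decrease is a bound. With each p53-null array at the higher of its own value and the lowest signal called well above background on that array, the probe was at least 11.2-fold lower (3.48 on the log2 scale). The measured means were -3.2 (wild-type) and -7.45 (p53-null), and the fit's adjusted p was 0.00299.

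Fbxo39 encodes an F-box protein, a family whose members choose targets for ubiquitin ligases. Its probe read 0.58, 0.38, 0.40, 0.56 and 0.44 on the wild-type arrays and -2.64, -2.55, -3.19, -2.74 and -2.62 on the p53-null arrays. The groups were far apart with little spread inside each, and the difference was -3.22 ± 0.12 (adjusted p = 1.64e-06).

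The uncharacterised gene 6330403K07Rik read -0.63, -0.72, -0.69, -0.93 and -1.16 on the wild-type arrays and -2.34, -2.18, -2.13, -2.24 and -2.05 on the p53-null arrays, and fell by 1.36 (SE 0.11, adjusted p = 5.68e-04). Pitpnm3, of the phosphatidylinositol transfer protein family, lay between -3.84 and -2.67 in wild-type and between -5.08 and -4.09 in p53-null lung and fell by 1.44 (SE 0.25, adjusted p = 0.0181). Neither gene's groups overlapped.
Git1, a scaffold protein of cell adhesions, fell by 0.78 (SE 0.12), and Rnasek, a ribonuclease, by 0.89 (SE 0.21). For Rnasek, wild-type array 5, at 0.86, lay among the p53-null arrays (0.62 to 0.96), far from the other wild-type arrays (1.71 to 2.09). Without that array Rnasek's difference was -1.10 (adjusted p = 5.7e-04), and its call held in 1 of the 10 fits that left out an array.
Rabep1, an effector of endosome fusion, fell on both of its probes, by 0.55 (SE 0.088) and by 0.36 (SE 0.085). The second of these calls was kept in 2 of the 10 fits that left out an array and missed the threshold with the GC trend removed (-0.28, adjusted p = 0.134). The calmodulin-binding transcription factor gene Camta2 fell by 0.51 (SE 0.11), and its other probe differed by -0.40 ± 0.11 (adjusted p = 0.0549).

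Probes of 1 gene often gave different answers. Of 124 genes with 2 or more tested probes, 30 had a called probe; in 4 of the 30 all probes were called and in 26 only some. The signs of all probes matched in 25 of these 30 genes and in 75 of the 124. The median gap between the highest and the lowest probe of a gene was 0.25 on the log2 scale, and in 7 genes it was over 1.

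Ywhae and Crk, which neighbour each other, had the plainest cases. Ywhae probes 2 and 3, placed downstream of probe 1, fell by 0.72 (SE 0.13, adjusted p = 0.0177) and by 0.71 (SE 0.14, adjusted p = 0.0256), beside a fall of at least 3.48 for probe 1. Probe 2 read 2.01, 2.05, 2.19, 2.14 and 1.59 on the wild-type arrays and 1.36, 1.37, 1.12, 1.40 and 1.11 on the p53-null arrays. The files place probe 1 on an unclassified clone from embryo and probes 2 and 3 on the reference transcript of the gene.
Crk encodes an adaptor that couples tyrosine kinases to small GTPases, and was the only gene called in both directions. Probe 3, from a cDNA clone, read -2.08, -2.05, -1.97, -2.08 and -1.95 on the wild-type arrays and -1.26, -1.17, -1.31, -1.07 and -1.08 on the p53-null arrays, a rise of 0.85 ± 0.076 (adjusted p = 0.00102). Probe 2, from the reference transcript, fell by 0.50 (SE 0.088, adjusted p = 0.0178), and probe 1 differed by -0.28 ± 0.11 (adjusted p = 0.131). For neither of the called probes did the groups overlap.

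Gosr1, a SNARE protein of the Golgi, split in the same way. Probe 2 read -3.13, -3.13, -3.27, -3.17 and -2.90 in wild-type and -2.19, -2.25, -2.37, -2.34 and -2.24 in p53-null lung and rose by 0.84 ± 0.085 (adjusted p = 0.00231), while probe 1 differed by -0.23 ± 0.11 (adjusted p = 0.204). Chd3 fell on 1 probe, by 0.90, and its 3 other probes lay between -0.31 and -0.13 and were not called. Zzef1 fell on 1 probe, by 0.57 (SE 0.092), beside 0.46 ± 0.20 and 0.0099 ± 0.085 on others, which were not called. For Gosr1 and Zzef1, whose probes differed in sign, no single direction can be given.

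**Figure D3:**
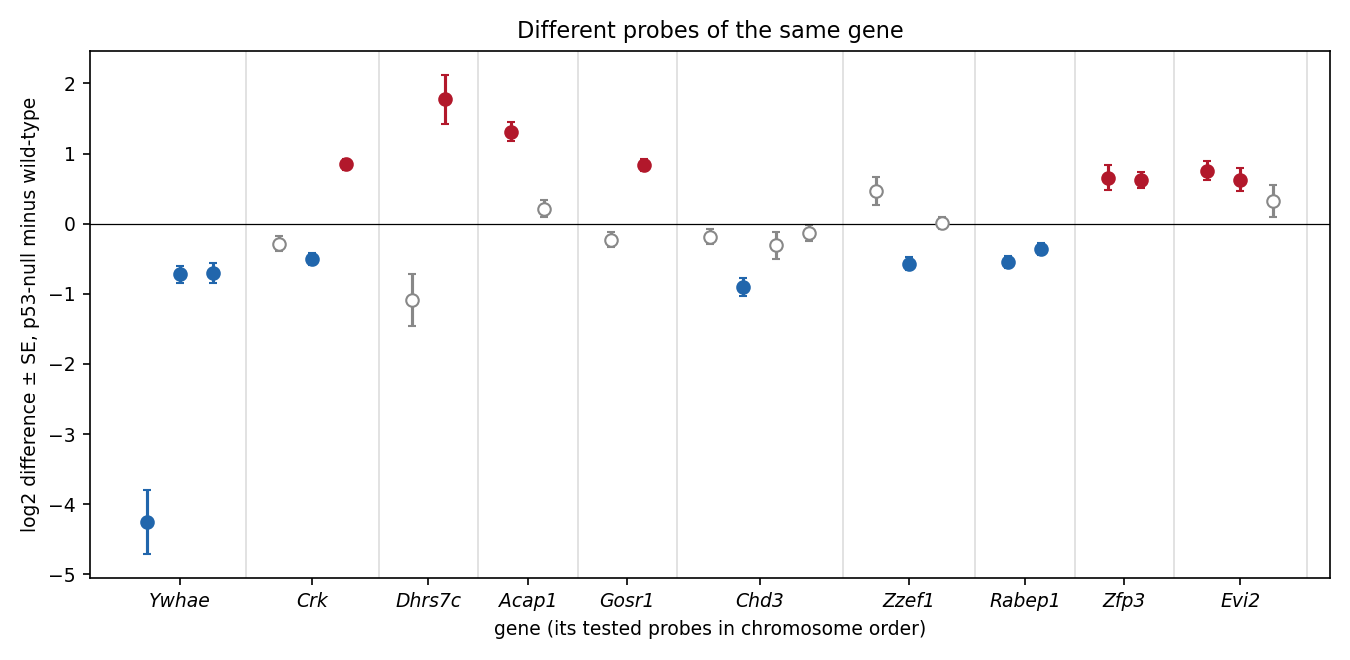
Log2 difference ± SE (limma, 5 arrays per group) of every tested probe of 10 genes, filled where called (red higher, blue lower in p53-null lung) and open where not. Crk has a filled point on each side of 0, Ywhae has 1 probe fitted at -4.25, near background on 4 of 5 p53-null arrays, and 2 near -0.7, while the probes of Zfp3 lie together.

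Among named genes, the largest increases included muscle, leukocyte and transport genes. Kcnab3 read -6.15, -6.83, -6.14, -5.93 and -5.94 on the wild-type arrays and -4.66, -4.58, -4.82, -4.88 and -4.94 on the p53-null arrays, with no overlap (adjusted p = 0.0055), and 4 of 5 wild-type arrays were well above background. With the bound used for Ywhae probe 1 set on the wild-type arrays, Kcnab3 was higher by at least 1.35. Slc6a4, the serotonin transporter, read -1.65, -1.68, -1.81, -1.48 and -1.54 in wild-type and -0.30, -0.95, -0.25, -0.73 and -0.59 in p53-null lung, and rose by 1.07 ± 0.14 (adjusted p = 0.00854). Trpv2 rose by 0.44 ± 0.068, or 0.26 (adjusted p = 0.0925) with the GC trend removed. Of the 24 tested probes of solute carriers, channels and pumps these 3 were called higher (12.5%, beside 4% of all probes). None was called lower, beside 3.1%, and the differences ran from -0.94 to 1.42. The list's median was 0.26.

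Further increases were those of Pfn1, the actin-binding profilin (0.61 ± 0.090), Tekt1, a filament protein of cilia (0.81 ± 0.12), Spns3 of a lipid transporter family (0.87 ± 0.14), and 2810408A11Rik, uncharacterised (0.82 ± 0.11), which were each also called in all 10 fits that left out an array. The other probes of Tekt1 (0.38) and of 2810408A11Rik (0.91 ± 0.27, adjusted p = 0.0643) were not called. Tlcd2 was higher by 1.46 ± 0.37 (adjusted p = 0.0465), with wild-type arrays 1 to 4 from -3.38 to -3.06, wild-type array 5 at -1.20 and p53-null arrays from -1.49 to -1.21. Its groups therefore overlapped through wild-type array 5, without which it differed by 1.86 (adjusted p = 1.2e-04).

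**Figure D4:**
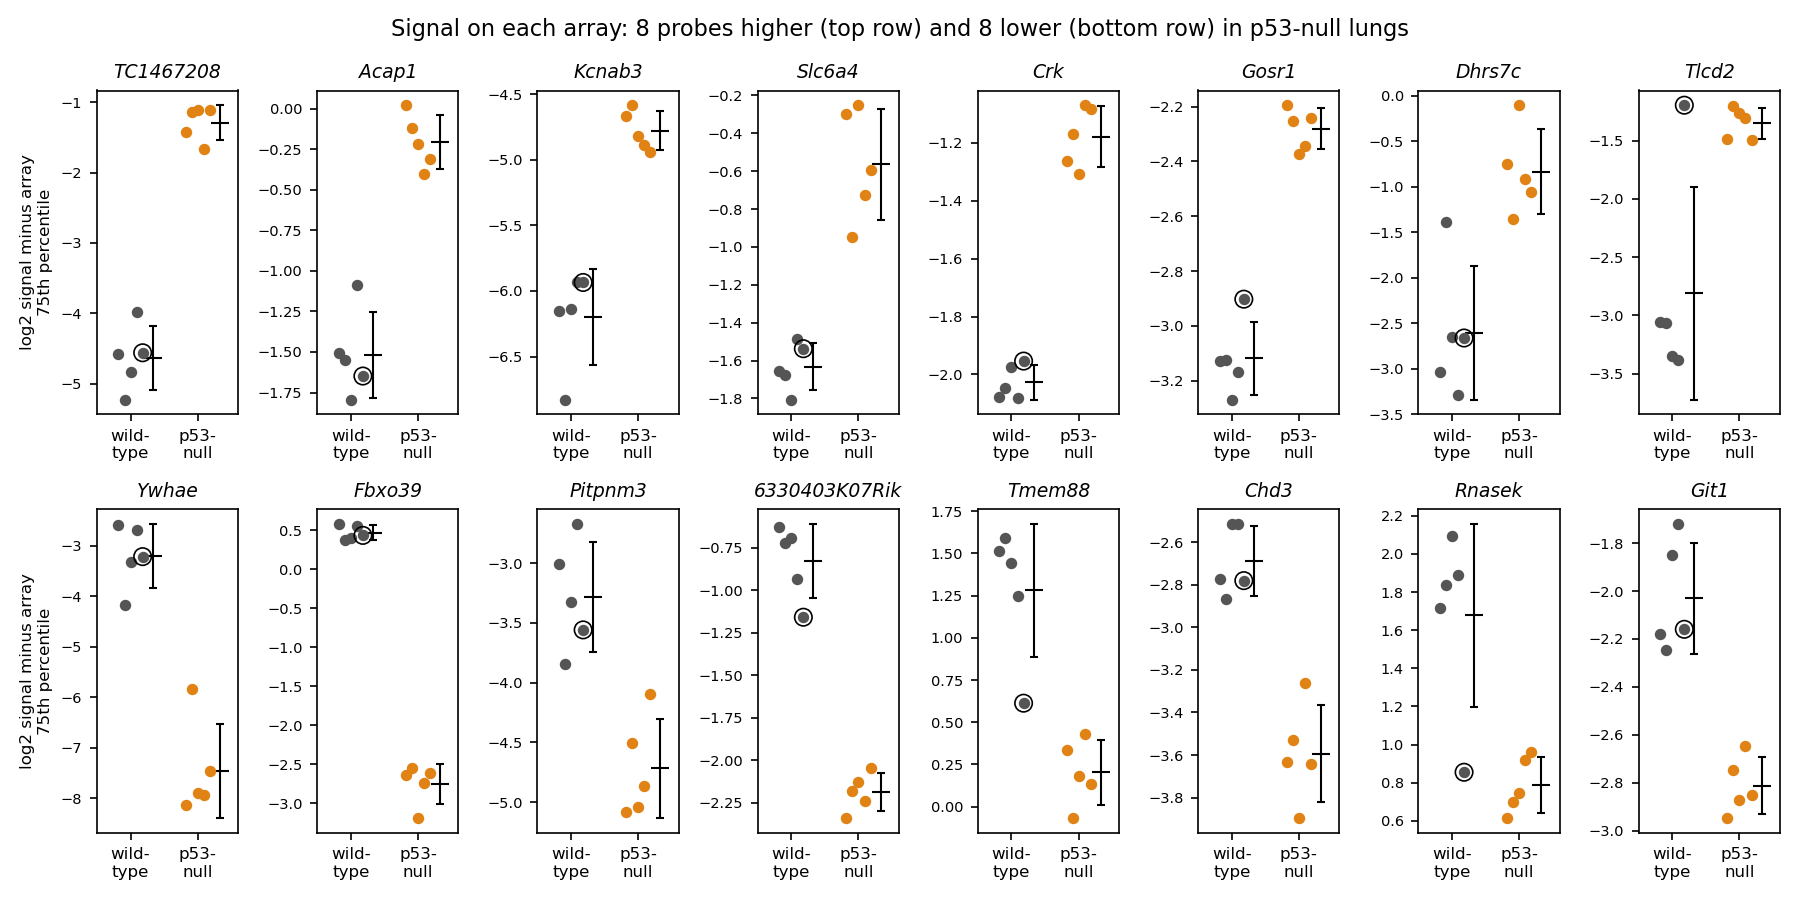
Log2 signal minus the array's 75th percentile on each of the 10 arrays for 8 probes called higher (top row) and 8 called lower (bottom row) in p53-null lung, with mean ± SD beside each group and wild-type array 5 ringed; each panel has its own scale. The groups overlap in Tlcd2 and Rnasek, in both through wild-type array 5, and not in the others.

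The skeletal muscle genes of the region had large differences with large errors, and nearly all missed the threshold. Of the 8 tested probes of skeletal myosin heavy chains only Myh3, the embryonic form, was called (12.5%, beside 7.1% of all probes). All 8 differences were above 0 and the median was 1.06. Myh3 read -6.44, -5.72, -7.10, -7.00 and -7.39 on the wild-type arrays, 3 of which were well above background, and -5.73, -5.47, -5.60, -5.71 and -5.47 on the p53-null arrays (1.14 ± 0.28, adjusted p = 0.0403), so the groups touched at 1 array each. Each wild-type array was also set to the higher of its own value and the lowest signal called well above background on it. Myh3 was then at least 1.94-fold higher (0.96 on the log2 scale). With the GC trend removed Myh3 was at 1.08 (adjusted p = 0.0518). Its second probe differed by 0.98 ± 0.27 (adjusted p = 0.0551). The adult fast myosin gene Myh4 differed by 0.78 ± 0.67 and the probes of Myh2 by 1.82 ± 1.68 and 2.04 ± 1.78.
Dhrs7c, a dehydrogenase of the sarcoplasmic reticulum of muscle that is on the list of mitochondrial genes, read -3.04, -1.39, -2.65, -3.29 and -2.66 in wild-type and -0.75, -1.35, -0.10, -0.91 and -1.06 in p53-null lung. This probe rose by 1.77 ± 0.35 (adjusted p = 0.0251), and the other Dhrs7c probe differed by -1.09 ± 0.37 (adjusted p = 0.0925). For both Myh3 and Dhrs7c, wild-type array 2, high in muscle markers, was the highest wild-type array. None of the 12 skeletal muscle markers was called (11 were well above background on every array, none was at background on all), and the summed list ran from -1.75 to 3.77 in wild-type and from -1.27 to 2.59 in p53-null lung. Without the 3 arrays high in these markers the differences were 1.39 for Myh3 (adjusted p = 0.115) and 2.18 for Dhrs7c (adjusted p = 0.101); the part of muscle tissue in these results was not tested.

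Where genes of the leukocyte and platelet surface list were called they were higher in p53-null lung. That list also holds genes of regulators and adaptors, such as Acap1 and Grap. Of the 22 tested probes of the leukocyte and platelet surface list, 5 were called higher, in Acap1, Grap, Itgae and Evi2, beside 4% of all probes, none was called lower, beside 3.1%, and the median was 0.31, beside 0.037. Acap1, a regulator of Arf GTPases abundant in lymphocytes, read -1.51, -1.55, -1.79, -1.09 and -1.65 on the wild-type arrays and 0.02, -0.12, -0.22, -0.40 and -0.31 on the p53-null arrays (1.31 ± 0.14, adjusted p = 0.00281). Its other probe differed by 0.21 ± 0.12 (adjusted p = 0.27).
Evi2, which the files list as the leukocyte membrane gene Evi2b, rose on 2 of 3 probes, by 0.75 ± 0.14 and 0.63 ± 0.16; the second missed the threshold with the GC trend removed (0.57, adjusted p = 0.0698). Grap, an adaptor of lymphocyte receptors, rose by 0.52 ± 0.12, and Itgae, the integrin of T cells that lodge in epithelium, by 0.50 ± 0.12. Each was kept in 1 of the 10 fits that left out an array. The other Itgae probe differed by 0.30 ± 0.10 (adjusted p = 0.106). The macrophage gene Cd68 differed by 0.47 ± 0.14 (adjusted p = 0.0684).

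Among the 20 tested probes of innate and inflammatory genes, 3 were called higher, beside 4% of all probes, and 2 lower, beside 3.1%. Tnfrsf13b, a receptor of B cells for survival factors, read -1.84, -1.74, -2.51, -1.58 and -1.52 in wild-type and 0.15, -0.59, -0.64, -0.83 and -0.83 in p53-null lung and rose by 1.29 ± 0.23 (adjusted p = 0.0199), while its dimmer second probe differed by 1.17 ± 0.46 (adjusted p = 0.137). Arrb2, which switches off chemokine and other receptors, read 0.54, 0.26, 0.45, 0.75 and 0.55 in wild-type and 1.25, 1.02, 1.14, 1.16 and 1.19 in p53-null lung and rose by 0.64 ± 0.10 (adjusted p = 0.0125). Pik3r5, a subunit of the leukocyte form of phosphoinositide kinase, rose by 0.63 ± 0.14, and its other probe differed by 0.52 ± 0.23 (adjusted p = 0.178). Traf4, a signalling adaptor, fell by 0.46 (SE 0.11), and the galectin gene Lgals9 by 0.50 (SE 0.12). The other Traf4 probe, at -0.11, was not called.
The summed neutrophil markers ran from -1.09 to -0.48 in wild-type and from 0.15 to 1.54 in p53-null lung, those of B cells from -1.33 to -0.20 and from 0.31 to 1.29, and those of T and NK cells from -0.74 to 0.045 and from 0.089 to 0.59. None of these lists had a marker at background on every array. In whole lung, more cells of a type and more RNA per cell cannot be told apart, and the part of leukocyte numbers in these results was not tested.

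Platelet-type lipoxygenase, Alox12, was the 1 called probe of 6 tested for lipoxygenases (16.7%, beside 7.1% of all probes), with a median of 0.37. Its wild-type arrays ran from -2.77 to -1.92 and its p53-null arrays from -2.11 to -0.94, so the groups overlapped; it rose by 0.95 ± 0.24 (adjusted p = 0.0454), and its other probe differed by 0.80 ± 0.25 (adjusted p = 0.0798). Of 10 red cell and platelet markers 2 were called higher; their sum ran from -1.13 to 0.36 in wild-type and from -1.35 to 0.97 in p53-null lung, and their part in the Alox12 result was not tested. Alox15 differed by 0.35 ± 0.33, and the epidermal Aloxe3 by -1.19 ± 0.73.

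Calls in the human deletion intervals lay mostly in and beside that of Miller-Dieker syndrome. Of 56 tested probes from the interval whose human counterpart is deleted in Smith-Magenis syndrome, 2 were called (3.57%, beside 7.1% of all probes). They were Rasd1, a Ras-related protein induced by glucocorticoids, at 0.72 ± 0.18 and Gid4, a ubiquitin ligase subunit, at -0.46 ± 0.12. Each missed the threshold with the GC trend removed (adjusted p = 0.119 and 0.0503). The other Gid4 probe differed by -0.022 ± 0.11 (adjusted p = 0.919). Rai1, the main gene of that syndrome, differed by -0.042 ± 0.13 and 0.068 ± 0.12 on its probes. The list's median was 0.0080.
Of 64 tested probes in or beside the Miller-Dieker interval, 6 were called higher, beside 4% of all probes, and 4 lower, beside 3.1%. The list's median was 0.039. Ywhae had 3 of the 10 calls, and Crk and Inpp5k had 2 each. Besides Ywhae, Crk and Tlcd2 these were Sgsm2, a regulator of Rab GTPases (0.55 ± 0.095), the phosphatase gene Inpp5k on both probes (0.78 ± 0.15 and 0.43 ± 0.085) and Abr (0.48 ± 0.086). With the GC trend removed the second Inpp5k probe was at 0.24 (adjusted p = 0.206). The other Abr probe, at 0.26, was not called. Pafah1b1, the lissencephaly gene of this interval, differed by -0.035 ± 0.13 and 0.024 ± 0.16. Whether the shares called in the deletion lists differ was not tested.

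Of 40 tested probes of transcription and chromatin genes, 2 were called higher, beside 4% of all probes, and 4 lower, beside 3.1%. The 2 were both of the zinc finger gene Zfp3 (0.62 ± 0.11 and 0.66 ± 0.17). The 4 were Chd3, Camta2, Phf12 (-0.49 ± 0.11) and Gps2, a corepressor subunit (-0.44 ± 0.11). The other tested probes of Phf12 (-0.015) and Gps2 (-0.27) were not called. Of 21 tested probes for cell division genes, 3 were called higher, beside 4% of all probes, and 2 lower, beside 3.1%. The mitotic histone kinase gene Haspin rose by 0.64 ± 0.11 and the kinetochore gene Mis12 fell by 0.46 (SE 0.093). The others on that list are known for other roles: Unc119 carries lipid-modified proteins (0.75 ± 0.17), Nek8 acts at cilia (0.43 ± 0.11) and the kinesin Kif1c moves vesicles (-0.33 ± 0.085). With the GC trend removed Nek8 (0.27, adjusted p = 0.114) and Kif1c (-0.34, adjusted p = 0.051) missed the threshold. The other Nek8 probe, at 0.37, was not called. Of the 3 Kif1c probes, which ran from -0.48 to 0.27, only 1 was called. The mitotic kinase gene Aurkb differed by 0.49 ± 0.21 (adjusted p = 0.16).

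None of 28 tested probes for translation and splicing genes was called at an adjusted p under 0.05, beside 7.1% of all probes. Their median was 0.098. The closest was the initiation helicase gene Eif4a1, whose probe with the smallest p differed by -0.32 ± 0.085 (adjusted p = 0.0523). Of 30 mitochondrial probes 2 were called (6.67%, beside 7.1% of all probes). They were Dhrs7c and Mrm3, which methylates mitochondrial ribosomal RNA and rose by 0.63 ± 0.10. Of 29 tested probes for cell adhesion, guidance and nerve genes 3 were called (10.3%, beside 7.1% of all probes). Nlgn2 and Itgae were higher and Git1 was lower. None of 15 tested olfactory receptor probes was called (median 0.37) at that threshold, beside 7.1% of all probes. Among them Olfr397 had the smallest p, at 0.66 ± 0.34 (adjusted p = 0.239). Called probes of genes on no list and not named above were Vmo1 (0.66), Mfsd6l (0.58), Borcs6 (0.47), Arhgef15 (0.43), the helicase gene Dhx33 (-0.40) and the ubiquitin peptidase gene Usp43 (-0.47), none of them kept in more than 2 of the fits that left out an array.

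The calls that did not rest on any single array were 22 of the 65: 15 higher, beside 0.604% of all probes, and 7 lower, beside 0.31%, or 3.83% of the tested members beside 0.915%. The 15 were TC1467208, Kcnab3, Acap1, Slc6a4, Spns3, Crk probe 3, Gosr1 probe 2, 2810408A11Rik, Tekt1, Fgf11, Arrb2, Mrm3, Pfn1, Sgsm2 and Trpv2. The 7 were Ywhae probe 1, Fbxo39, 6330403K07Rik, Chd3, Git1, Zzef1 and Rabep1. A further 28 of the 65 were kept in at most 2 of the 10 fits.

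Counts moved far more than values. Leaving out wild-type array 5 raised the members called to 200 of 574 (34.8%), beside 30.6% of all probes, and all 65 were among them; that array lay nearer the p53-null mean than the mean of the other wild-type arrays for 20 of the 65 but for 1 of the 22. Removing the GC trend of every array left 63 calls (11%), 51 of them shared, beside 7.08%. The 14 that missed the threshold there were 1 probe each of Rasd1, Gid4, Trpv2, Myh3, Usp43, Mfsd6l, Arhgef15, Sat2, Mpdu1, Kif1c, Rabep1, Inpp5k, Nek8 and Evi2. Leaving out the 3 arrays high in muscle markers left 3 calls, beside 0.038% of all probes: TC1467208, Fbxo39 and Kcnab3. All 65 kept their sign in each of these 3 fits.

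**Figure D5:**
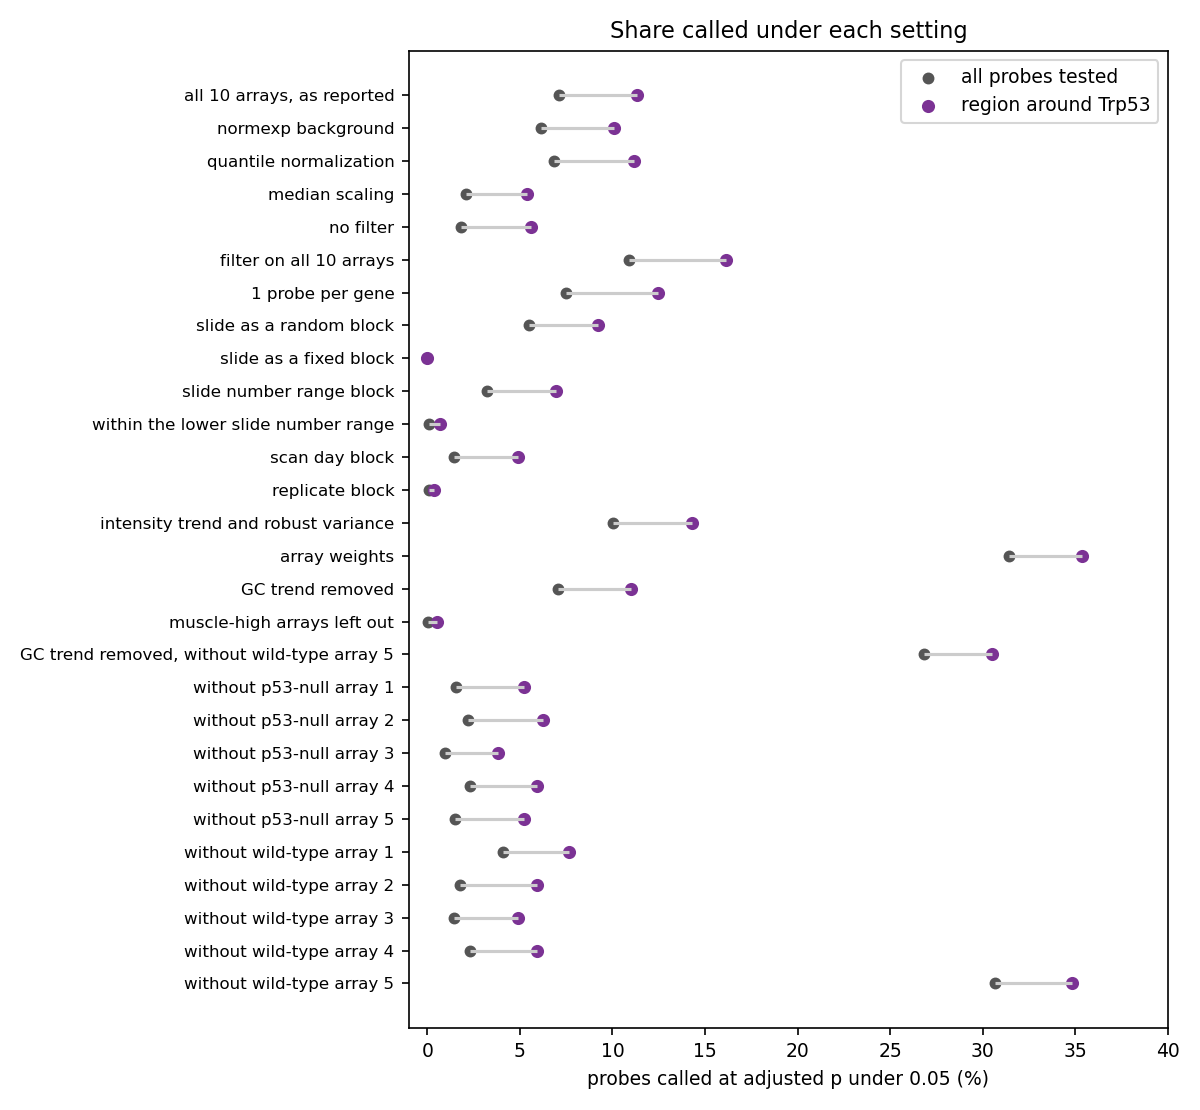
Percentage of tested probes called at an adjusted p under 0.05 in the region (purple) and over the whole array (grey), one row for each way of fitting the 10 arrays, joined by a line. In every row but the fixed slide block, where neither had a call, the region's share is above the array's; the highest shares are those with wild-type array 5 left out or weighted down.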

How the data were processed

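Cy3-labelled RNA of whole lung was hybridised to 1-colour arrays, per the labels' protocols, and per the submitters' processing notes signals came from Agilent Feature Extraction 9.5; background was subtracted and a spatial trend removed from the deposited intensity, per the file headers. The value table deposited by the authors held the same intensity, linear and uncentred. Each array's log2 intensity was taken minus its 75th percentile, flagged spots were left out and spots of a probe averaged. Names came from accessions (432 members), symbols (96) or synonyms (44) in a GRCm38 table used for names only, on which 571 of 572 named members lay on the same chromosome. Groups were compared with limma 3.58.1 (lmFit, eBayes) in R 4.3.3 on the 31599 probes that were well above background in 5 or more arrays, with Benjamini-Hochberg adjustment at 0.05.

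The members, lists and rules were chosen with earlier results of these data known. Named were the 12 genes highest and 12 lowest among called members, up to 3 called genes per list by smallest p (the first where none was called), up to 4 near Trp53, and unnamed called transcripts; other genes named were chosen after their values were seen. Lists are described by counts and medians, without a test. Other settings concerned GC content, array weights, thresholds, background correction, scaling, filters, 1 probe per gene, slide, scan day, replicate number, variance and leaving out each array. On simulated data with 31599 probes, 34.3% of changes of 1.5-fold, 58.2% of 2-fold and 83.3% of 4-fold were recovered, with 5 false calls. The simulated noise was independent for each probe and array, without slide effects, GC trends or a deviant array. These figures therefore give no error rate for the real arrays. Genes left out by the rule of choice are not reported here.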

Additional observations from a re-analysis of the deposited data

Results flagged for a closer look

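Of 88 groups of 5 arrays tested over the named probes, 6 held 1 array whose gap to the nearest other array was over 0.71 of the group's whole range, Dixon's 95% critical value for 5 arrays; chance flags about 1 group in 20. In 3 of the 6 it was wild-type array 5: Tlcd2 read -1.197 on it with the next wild-type array at -3.056, the lipid-carrier gene Unc119 read 0.859 beside 0.097, and Trpv2 read 1.041 beside 0.929. Wild-type array 2 was lowest for Kcnab3, at -6.828 beside -6.153. p53-null array 1 was highest for Tnfrsf13b, at 0.147 beside -0.589, and for Eif4a1, at 3.932 beside 3.722.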

How the results depend on the processing

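With limma on all 10 arrays 65 member probes and 2245 probes in all were called, and leaving out 1 array gave 22 to 200 members and 302 to 9684 probes, lowest without p53-null array 3 and highest without wild-type array 5. Without a block, other settings gave, for members and then for all probes, 31 and 651 with median scaling, 38 and 749 without the filter, 203 and 9922 with array weights, 3 and 12 without the 3 arrays high in muscle markers, 11 and 88 at an adjusted p under 0.01, 13 and 310 at 2-fold or more, and 175 and 8473 with the GC trend removed and wild-type array 5 left out, a setting chosen after seeing the data. Blocks gave 40 and 1018 for the slide number range, 4 and 19 within the lower range, 28 and 450 for scan day (the same as leaving out wild-type array 3, alone on its day) and 0 and 0 for slide as a fixed term, where 41 members and 1594 probes had an unadjusted p under 0.05. The replicate block left 2 members (TC1467208 and Fbxo39) and 32 probes. Arrays with the same number did not deviate together (correlations -0.23 to 0.0067, 0 arrays closest to their own number). No pairing by number was therefore seen, and the labels state none, but so few arrays cannot exclude it. Normexp background, quantile scaling, the stricter filter, 1 probe per gene, slide as a random block, the trended robust variance and the GC trend alone stayed within 1.5 times, at 51 to 83 members. All 65 kept their sign wherever they were tested. No named probe reversed; of the comparisons of 44 named probes with their reported call, 798 kept it, 365 missed the threshold and 10 passed it newly. Dim probes such as Myh3 and the first Ywhae probe, not well above background on every array, are limited by signal. Apart from the settings with fewer arrays or stricter thresholds, the cause of each change was not tested.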
